A study of Homo sapiens with 7 samples.

Results

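Prostaglandins are lipid signals that cells make from arachidonic acid. Phospholipases free the acid from membranes, cyclooxygenases turn it into the unstable intermediate prostaglandin H2, and terminal synthases turn that into prostaglandin E2 and its relatives, which act on G protein-coupled receptors before reductases and a dehydrogenase inactivate them. In lung epithelium this pathway is known for its part in inflammation and repair, and the inducible cyclooxygenase is a known product of A549 cells and of senescent cells. The genes described here are 10 human genes of the pathway, picked by symbol: the phospholipase PLA2G4A, the cyclooxygenases PTGS1 and PTGS2, the prostaglandin E synthases PTGES, PTGES2 and PTGES3, the inactivating enzymes PTGR1 and HPGD, and the prostaglandin E receptors PTGER2 and PTGER4. Of the 14535 genes of the table, 9 are of this set, and PLA2G4A was not analysed here. A filter on low counts kept 11230 genes for testing, with 7 of the 9 among them. PTGS1 and PTGER2 did not pass it.

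The samples were 7 RNA libraries of A549 cells, an epithelial line from a human lung adenocarcinoma, sorted for staining by β-galactosidase, an enzyme activity used as a mark of senescent cells. Libraries 1, 2 and 3 came from cells given 100 nM doxorubicin, a drug that traps topoisomerase II on DNA and leaves breaks, for 24 h. Libraries 4, 5, 6 and 7 came from cells under cyclic stretch of 15% elongation at 15 cycles per min, also for 24 h. All were stained 6 days later, and only positive cells were sequenced, so the comparison is between 2 kinds of senescent-sorted A549 cells. No untreated cells were analysed here, and a gene that stood higher in stretch stood, by the same value, lower in doxorubicin. Whether libraries of a group were separate cultures is not in the labels, so each p-value reflects only how these libraries vary, and that variation may be technical. The line is a cancer line, which limits it as a model of lung epithelium. Of its epithelial markers, the keratins KRT7, KRT8 and KRT18 had at least 582 counts in every library. AKR1B10 had at least 2453, KRT19 at least 86 and CDH1 at least 56. EPCAM was sparser, with 11, 1 and 24 counts in libraries 1, 2 and 3 and 88 to 135 in the stretch libraries. The surfactant genes SFTPB and SFTPC had at most 6 counts in any library, which in this table cannot be read as low expression.

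Total counts ran from 2611739 to 4644250 in the doxorubicin libraries and from 5636386 to 7419778 in the stretch libraries. Levels below are CPM, a count divided by its library's size and scaled up by one constant, with sizes adjusted by TMM factors, which correct for a few genes that take a large share of a library. A level of 3 counts, used as the limit of detection, was 1.19, 2.59 and 0.567 CPM in libraries 1, 2 and 3 and at most 0.401 CPM in stretch. The gene EIF4A2 alone took 10.8% to 30.6% of the counts in the doxorubicin libraries and 1.67% to 2.87% in the stretch libraries, and like the difference in depth this moves with the groups. Log-CPM correlated across genes at 0.939 to 0.978 between stretch libraries and at 0.754 to 0.884 between doxorubicin libraries, so the doxorubicin group had the wider spread. Among markers of other cell types, summed CPM of fibroblast markers (6 of 8 with a row) was 18.7 to 44.96 in doxorubicin against 15.5 to 16.8 in stretch. For immune markers (4 of 8) it was 100.2 to 139 against 57.6 to 60.97. Of these, CD68 had means of 75.6 and 18.6 CPM, LYZ 27.7 and 29.6 and CD14 10.7 and 10.4. Summed epithelial markers (9 of 10) were also higher in doxorubicin, at 4473 to 8888 against 3748 to 4072 CPM. Summed endothelial markers (2 of 6) reached at most 3.01 CPM. The part of EIF4A2, depth or these markers in the results below was not tested. In bulk RNA, fewer cells that express a gene and less of its RNA per cell cannot be told apart. Each gene is amplified with its own primers here, so levels are compared between libraries and not between genes.

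HPGD and PTGS2, at opposite ends of the pathway, were the members with the clearest separation: each was higher in every stretch library than in every doxorubicin library, by 2.52-fold and 2.17-fold. PTGES2 showed the same order at 1.86-fold. None of the 7 tested members had an adjusted p under 0.05 (edgeR quasi-likelihood F-test, Benjamini-Hochberg over the whole table), where 2.32% of all tested genes did. At an unadjusted p under 0.05 there were 3 members (HPGD, PTGS2 and PTGES2), against 23.2% of all tested genes. The group ranges did not overlap for the same 3 of 7, against 21.4% of all tested genes. Log2 fold changes (stretch minus doxorubicin) were above 0 for 6 of 7, against 51.2% of all tested genes, and the median was 0.68 against 0.02 over all tested genes. The members were chosen with earlier results known, so these counts describe the set and do not test it.

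Whether a member passed varied with the method and with 1 doxorubicin library. DESeq2 called PTGS2 and HPGD, with 10% of all genes called. Limma-voom with library quality weights called PTGS2, HPGD, PTGES2 and PTGES3, with 47.0% called, and edgeR without doxorubicin library 3 called the same 4, with 32.2% called. Each of these calls was toward stretch. No member was called in the other 13 alternatives. The share of all genes called there was 2.26% with RLE factors, 1.84% with upper-quartile factors, 0.116% with library totals alone, 1.96% with no filter, 1.91% at a mean of at least 10 CPM, 1.66% with limma-voom and 0.802% with library 3 as the only doxorubicin library. It was 0.197% and 2.47% without doxorubicin library 1 or 2, and 0.359%, 0.146%, 0.109% and 0.109% without stretch library 4, 5, 6 or 7.

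**Figure D1:**
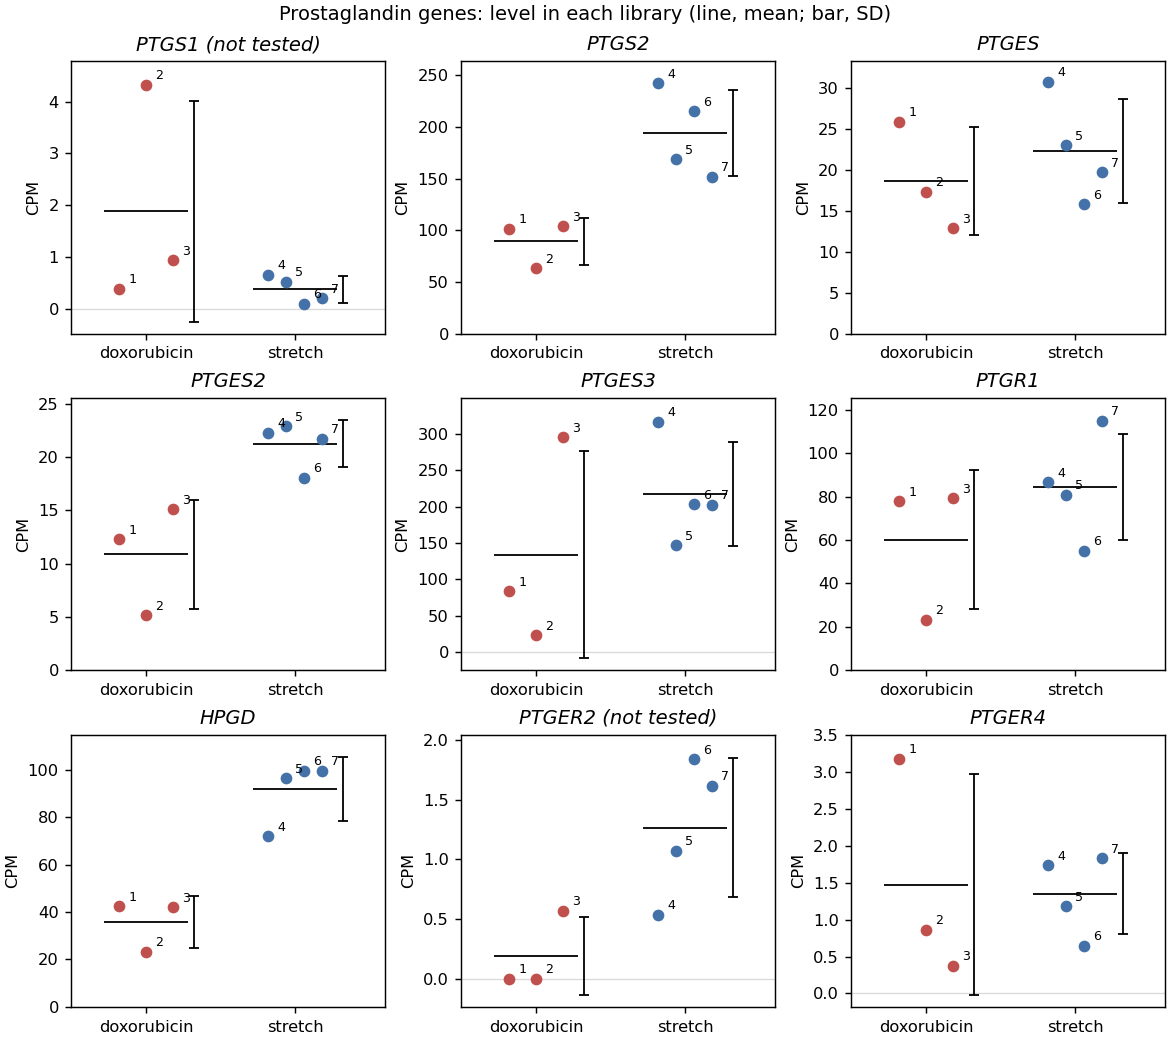
Level of each of the 9 genes with a row, in CPM (vertical axis, from 0, one scale per gene), in the 3 doxorubicin libraries (red) and the 4 stretch libraries (blue), each point labelled with its library number; lines are group means and bars are SDs. PTGS2, PTGES2 and HPGD have stretch points that all lie above the doxorubicin points, and for PTGES3 library 3 lies among the stretch libraries.

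The cyclooxygenases carry out the committed step. PTGS2, which codes the inducible cyclooxygenase-2 (chromosome 1, 186671791 to 186680427, minus strand, GRCh38), measured 101 CPM in doxorubicin library 1, 63.1 CPM in library 2 and 104 CPM in library 3. In stretch libraries 4, 5, 6 and 7 it measured 242, 169, 215 and 152 CPM. The groups did not overlap, and library 2 was the lowest of all. The means were 89.3 ± 22.7 CPM (SD, n = 3) and 194 ± 41.7 CPM (n = 4), a log2 fold change of 1.12 with a 95% interval from 0.40 to 1.83. The gene had 73 counts or more in every library, and its adjusted p was 0.0837 by edgeR. It passed with DESeq2 (adjusted p = 0.0074, log2 fold change 1.14), where 10% of all genes passed, and without doxorubicin library 3 (adjusted p = 0.0149 by edgeR, log2 fold change 1.26), where 32.2% did. With library 3 as the only doxorubicin library the log2 fold change was 0.93, and over 16 alternatives it ran from 0.83 to 1.76, always toward stretch.

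The region upstream of PTGS2 is printed because this gene is the inducible step of the set and its promoter is where inflammatory, stress and cyclic AMP signals are known to act. The run covers chr1:186680428-186680673 of GRCh38.p14 on the minus strand, from RefSeq, trimmed by the bases that lie inside the GENCODE 29 gene. Capitals mark, in order, overlapping matches to the NF-kB motif (GGG, any 5 bases, then CC), 1 match to TTNNGNAA (C/EBP), 1 to the core of the cyclic AMP response element (TGACG, here on the other strand) and 1 to the TATA box (TATAAA).
PTGS2 promoter: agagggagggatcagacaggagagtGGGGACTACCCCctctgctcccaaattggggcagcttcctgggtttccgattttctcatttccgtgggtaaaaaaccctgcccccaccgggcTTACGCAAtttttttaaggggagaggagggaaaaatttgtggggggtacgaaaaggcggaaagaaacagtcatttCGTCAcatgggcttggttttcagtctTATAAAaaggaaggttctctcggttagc
The first bases of these matches lie 225, 133, 58 and 32 bases before the RefSeq start. Of 27305 promoters of 250 bases searched on both strands, 53.7% held the NF-kB motif, 33.6% the C/EBP motif, 21.7% the TGACG core and 11.1% the TATA box, so each motif alone is common. The same window of PTGS2 held neither GGGCGG (SP1, in 42.3% of promoters) nor the interferon response motif (GAAA, any 2 bases, then GAAA, in 3.07%). Among the 9 members, which all have a promoter in the RefSeq table, PTGS2 and PTGS1 held TATAAA, at 32 and 208 bases before the start. The C/EBP motif was in PTGS2 alone, and none held the interferon motif. TGACG was also in PTGES3 and PTGER2, and the NF-kB motif was in each of these members but PTGR1. These matches are letters in a sequence and do not show which factors were bound.

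PTGS1, which codes the constitutive cyclooxygenase-1 (chromosome 9, 122370530 to 122395703), was barely detected. Doxorubicin libraries 1, 2 and 3 held 1, 5 and 5 counts, and stretch libraries 4 to 7 held 5, 5, 1 and 2. Summed over libraries it stood at 1.23 CPM in doxorubicin (exact Poisson interval 0.613 to 2.20, counting error only) and 0.367 CPM in stretch (0.196 to 0.628). These intervals leave out the spread between libraries, and the doxorubicin level was 0.397, 4.32 and 0.945 CPM in libraries 1, 2 and 3, so library 2 carries most of the difference. In an edgeR fit without the filter its adjusted p was 0.271. So few counts of PTGS1 do not resolve a difference.

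Of the 3 prostaglandin E synthases, PTGES2 separated the groups and PTGES and PTGES3 did not. PTGES2, a membrane-associated synthase of broad expression (chromosome 9, 128120693 to 128128462), measured 12.3, 5.19 and 15.1 CPM across doxorubicin libraries 1, 2 and 3. The stretch libraries 4 to 7 stood at 22.3, 22.9, 18.1 and 21.7 CPM. Every stretch library lay above every doxorubicin library, although library 2 rests on 6 counts. The means were 10.9 ± 5.12 CPM (SD, n = 3) and 21.2 ± 2.18 CPM (n = 4), a log2 fold change of 0.90 (95% interval 0.08 to 1.71) with an adjusted p of 0.177 by edgeR. The log2 fold change was 0.63 without doxorubicin library 2 and 0.51 with library 3 as the only doxorubicin library. It was 1.21 without library 3, where PTGES2 passed (adjusted p = 0.0318 by edgeR), as did 32.2% of all tested genes.

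PTGES codes the inducible microsomal synthase that is often coupled to cyclooxygenase-2 (chromosome 9, 129738331 to 129753047). Its level was 25.8, 17.3 and 12.9 CPM in doxorubicin libraries 1, 2 and 3, against 30.7, 23.0, 15.8 and 19.7 CPM in stretch libraries 4 to 7. The ranges overlapped, where those of PTGS2 did not, and the difference between these 2 genes was not tested. The log2 fold change was 0.26 (95% interval -0.54 to 1.07), and its adjusted p was 0.689 by edgeR. It was 0.60 without doxorubicin library 1, 0.05 without library 3, 0.07 without stretch library 4 and 0.39 without stretch library 6. It was 0.81 with library 3 as the only doxorubicin library and 1.058 with library totals alone. That interval does not show equal levels: it still holds a doubling toward stretch.

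PTGES3 codes the cytosolic synthase, better known as p23, a co-chaperone of HSP90 (chromosome 12, 56663341 to 56688408). It measured 83.8, 23.3 and 295 CPM across doxorubicin libraries 1, 2 and 3, and at 316, 147, 203 and 202 CPM in stretch libraries 4 to 7. Library 3 lay within the stretch range, and libraries 1 and 2 lay below it. The log2 fold change of 0.68 therefore depends on which doxorubicin libraries are used: it was 2.01 without library 3 (adjusted p = 0.00944 by edgeR), 0.20 without library 2, 0.44 without library 1 and -0.43 with library 3 alone. Leaving out stretch library 4, the highest, gave 0.44. Its adjusted p with all libraries was 0.549, and without library 3, where PTGES3 passed, 32.2% of all tested genes did. Processed pseudogene copies of PTGES3 and the related gene PTGES3L are annotated on other chromosomes, and PTGES3P1 and PTGES3L have rows of their own, so reads could be split between them and the counts of PTGES3 are uncertain.

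HPGD and PTGR1 end the signal. HPGD, the dehydrogenase that oxidises prostaglandin E2 in the first step of its inactivation (chromosome 4, 174490177 to 174523154), measured 42.5, 23.3 and 41.96 CPM across doxorubicin libraries 1, 2 and 3. It stood at 71.8, 96.4, 99.5 and 99.5 CPM in stretch libraries 4 to 7. The groups did not overlap, and the gap between the highest doxorubicin and the lowest stretch library was wider than the SD within either group. The means were 35.9 ± 10.9 CPM (SD, n = 3) and 91.8 ± 13.4 CPM (n = 4), a log2 fold change of 1.34 with a 95% interval from 0.63 to 2.04. This placed HPGD at the 95.9th percentile of all tested genes and PTGS2 at the 93.1st.

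The adjusted p of HPGD was 0.0552 by edgeR, just outside the threshold. It passed with DESeq2 (adjusted p = 0.000626, log2 fold change 1.35) and without doxorubicin library 3 (adjusted p = 0.00684 by edgeR, log2 fold change 1.48). It also passed with limma-voom and library quality weights (adjusted p = 0.000146), as did PTGS2, PTGES2 and PTGES3 (0.00267, 0.0123 and 0.00412). In that last setting 47.0% of all tested genes passed. With library 3 as the only doxorubicin library the log2 fold change was 1.14, and over 16 alternatives it ran from 1.13 to 1.97.

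PTGR1, a reductase that inactivates the oxidised products and also acts on leukotriene B4 (chromosome 9, 111549722 to 111599893), measured 77.8, 23.3 and 79.4 CPM across doxorubicin libraries 1, 2 and 3. It stood at 86.8, 80.9, 55.1 and 115 CPM in stretch libraries 4 to 7. Stretch library 6 lay below doxorubicin libraries 1 and 3, so the groups overlapped. The log2 fold change was 0.47 (95% interval -0.48 to 1.41, adjusted p = 0.528 by edgeR), 0.11 without doxorubicin library 2, where 27 counts were found, and 0.29 without stretch library 7. The difference between PTGR1 and HPGD was not tested.

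**Figure D2:**
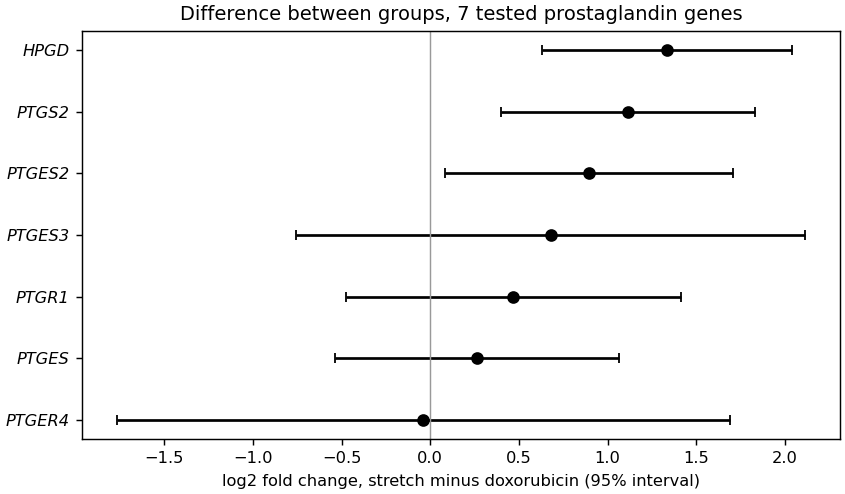
Log2 fold change of the 7 tested genes, stretch minus doxorubicin (horizontal axis), with 95% intervals from edgeR's quasi-likelihood fit over 3 doxorubicin and 4 stretch libraries. The unadjusted intervals of HPGD, PTGS2 and PTGES2 lie above 0, and that of PTGER4 runs from -1.77 to 1.69.

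The prostaglandin E receptors were near the limit of detection. PTGER2 codes EP2, which raises cyclic AMP (chromosome 14, 52314305 to 52328606). Doxorubicin libraries 1, 2 and 3 held 0, 0 and 3 counts, and stretch libraries 4 to 7 held 4, 10, 17 and 15. The level was at most 0.567 CPM in doxorubicin and 0.534 to 1.84 CPM in stretch, and library 4 lay below library 3. In libraries 1 and 2 the 0 counts allow a level of up to 1.19 and 2.59 CPM, within or above the stretch range. Summed counts gave 0.335 CPM in doxorubicin (exact Poisson interval 0.0690 to 0.978, counting error only) and 1.30 CPM in stretch (0.952 to 1.73). Without the filter on low counts its adjusted p was 0.235 by edgeR, and it was 0.252 by DESeq2, so these counts do not resolve a difference.

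PTGER4 codes EP4, the other receptor coupled to cyclic AMP (chromosome 5, 40679498 to 40693735). Doxorubicin libraries 1, 2 and 3 held 8, 1 and 2 counts, and stretch libraries 4 to 7 held 13, 11, 6 and 17. Levels were 3.18, 0.865 and 0.378 CPM against 1.74, 1.18, 0.649 and 1.83 CPM, with library 1 highest and library 3 lowest of all. The log2 fold change was -0.04 (95% interval -1.77 to 1.69, adjusted p = 0.982 by edgeR), and its sign turned under 8 of the 13 alternatives that tested it. It was 1.43 without doxorubicin library 1 and -0.75 without library 3. Pseudogene copies of PTGER4 are annotated on chromosome 9, so these few counts are also uncertain.

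**Figure D3:**
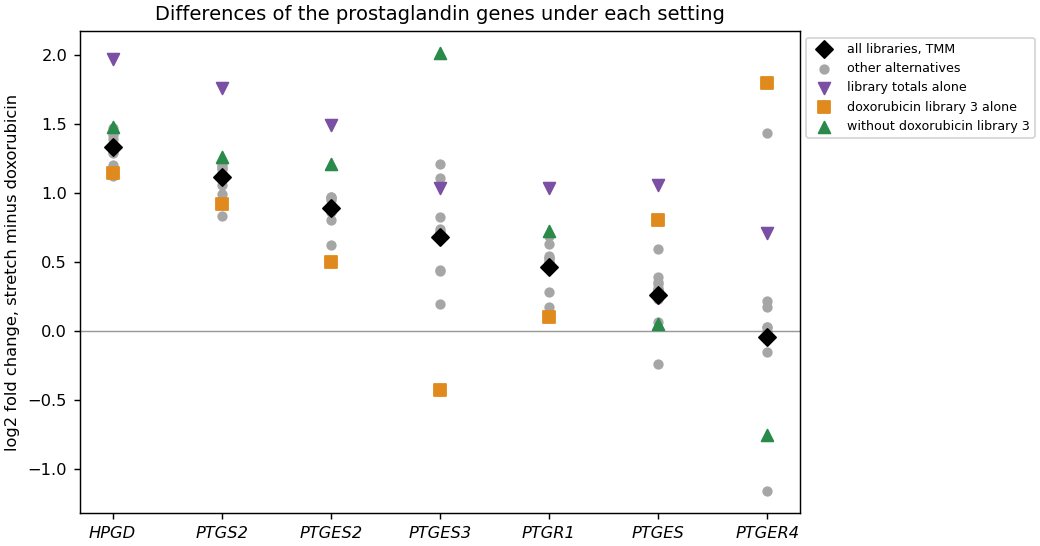
Log2 fold change of each tested gene, stretch minus doxorubicin (vertical axis), with all libraries (black) and under each alternative; coloured symbols mark library totals alone, doxorubicin library 3 alone and all libraries but that one. HPGD, PTGS2, PTGES2 and PTGR1 stay above 0 in each of the 16. PTGES falls below 0 once, with library quality weights, and PTGES3 and PTGER4 turn sign with library 3 as the only doxorubicin library.

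Among the genes whose pattern over the 7 libraries was most like that of PTGS2 were SMIM20, WDR59, BHLHE40 and ALDH9A1. Likeness was the root mean square difference of log2-CPM centred on each gene, which was 0.14 to 0.20 for these against a median of 0.77 over 7500 genes with a mean of at least 10 CPM. BHLHE40, a circadian and stress-responsive repressor, stood at 100.1, 69.2 and 155 CPM in doxorubicin and 332, 215, 247 and 183 CPM in stretch. As for PTGS2, libraries 4 and 6 were the highest and library 2 the lowest for BHLHE40. None of these 4 passed the threshold with all libraries, with adjusted p from 0.0761 to 0.171 by edgeR. WDR59 and BHLHE40 passed with DESeq2 (adjusted p = 0.00937 and 0.0202), where 10% of all genes passed. With library quality weights WDR59, BHLHE40 and ALDH9A1 passed, where 47.0% did. Without doxorubicin library 3 all 4 passed (adjusted p from 0.0064 to 0.0478 by edgeR), where 32.2% did.

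The other genes of the pathway, taken from lists by role, gave 3 past the threshold of 73 tested, all higher in doxorubicin, against 2.32% of all tested genes in both directions and 1.97% toward doxorubicin. Their median log2 fold change was -0.12. The count was 3 of 76 without doxorubicin library 2 and 27 of 77 without doxorubicin library 3, against 2.47% and 32.2% of all tested genes. It was 1 of 72 without stretch library 5, against 0.146%. It was 0 on leaving out doxorubicin library 1 (0.197% of all tested genes) or stretch library 4, 6 or 7 (0.109% to 0.359%).

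In the lipoxygenase branch, which makes leukotrienes from the same arachidonic acid, ALOX5 was higher in doxorubicin. ALOX5, the 5-lipoxygenase, reached 12.3, 6.05 and 4.92 CPM in doxorubicin libraries 1, 2 and 3, against 0.401, 1.07, 0.216 and 0.430 CPM in stretch libraries 4 to 7. The groups did not overlap, on 7 to 31 counts in doxorubicin and 2 to 10 in stretch. ALOX5 passed the filter on low counts through the doxorubicin libraries alone. Stretch library 6, at 2 counts, lay below the limit of detection, so the size of the difference is uncertain. The log2 fold change was -3.81 with an SE of 0.59 and an edgeR adjusted p of 0.0147, and it was -3.15 with library 3 as the only doxorubicin library (adjusted p = 0.0791). The call was lost on leaving out doxorubicin library 1 or stretch library 4, 6 or 7, with adjusted p from 0.0598 to 0.0974. Library totals alone also ended the call (log2 fold change -3.05, adjusted p = 0.125 by edgeR), and with no filter it was kept (adjusted p = 0.0121 by edgeR). ALOX5AP, which presents arachidonic acid to ALOX5, had 2, 1 and 7 counts in doxorubicin and 0 in each stretch library, and was not tested. Of the 6 tested genes of the branch 1 passed, against 2.32% of all tested genes, and the median log2 fold change was -0.46.

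Among 11 tested genes of arachidonate release and re-esterification, MBOAT7, an acyltransferase that puts arachidonic acid back into phosphatidylinositol, passed on the doxorubicin side at an adjusted p that rounds to 0.05. Its level was 428, 693 and 117 CPM in doxorubicin libraries 1, 2 and 3, against 82.7 to 104.5 CPM in stretch. Library 3 lay close to the stretch range, and the log2 fold change was -2.13 with all libraries and -0.30 with library 3 as the only doxorubicin library. It was -1.53 without doxorubicin library 2 (adjusted p = 0.0797) and -2.54 without doxorubicin library 3 (adjusted p = 0.000206, edgeR), where 32.2% of all tested genes passed. The call was kept in 4 of 16 alternatives. The list's median was -0.15, and 1 of its 11 tested genes passed, against 2.32% of all tested genes.

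Of 3 tested receptors and partners 1 passed, against 2.32% of all tested genes. This was PTGFRN, a membrane protein that dampens the prostaglandin F2 alpha receptor, on the doxorubicin side. It stood at 59.6, 105.5 and 40.1 CPM in doxorubicin and at 15.4 to 22.8 CPM in stretch (log2 fold change -1.76 with an SE of 0.36 and an edgeR adjusted p of 0.0341). On leaving out doxorubicin library 1 or stretch library 4, 5, 6 or 7 the adjusted p was 0.0835 to 0.162, and with library 3 as the only doxorubicin library the log2 fold change was -0.995. PTGER3 and PTGIR, receptors for prostaglandin E2 and prostacyclin, had mean levels of at most 0.328 CPM in either group and were not tested.

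No gene of the remaining pathway lists passed in edgeR with all libraries and the filter on low counts. Of 6 tested genes of transport and inactivation, 2 had an unadjusted p under 0.05, against 23.2% of all tested genes, and the median log2 fold change was 0.37. ABCC4, which exports prostaglandin E2, was counted 3, 0 and 18 times in doxorubicin libraries 1, 2 and 3, against 35, 138, 230 and 221 times in stretch libraries 4 to 7. The CPM values were 1.19, 0 and 3.40 against 4.67, 14.8, 24.9 and 23.8 CPM, with no overlap (log2 fold change 3.07 with an SE of 0.75 and an edgeR adjusted p of 0.0566). ABCC4 passed in 4 of 16 alternatives: edgeR with no filter (adjusted p = 0.0495), DESeq2 (0.00108), limma-voom with quality weights (0.000358) and edgeR without doxorubicin library 3 (0.00604). On the log2 scale the difference reached 4.42 without library 3, and 2.34 with library 3 as the only doxorubicin library. AKR1C1, a reductase of steroids and prostaglandins, stood at 253 ± 118 CPM (SD, n = 3) against 530 ± 123 CPM (n = 4), with an adjusted p of 0.149 by edgeR, and of 0.0403 without doxorubicin library 3. Reads of AKR1C1 can be shared with close paralogs, which makes this count uncertain. Of 5 tested other synthases 1 had an unadjusted p under 0.05, against 23.2% of all tested genes: CBR1, a carbonyl reductase that turns prostaglandin E2 into F2 alpha, at 20.7, 8.65 and 30.6 CPM against 40.6 to 43.7 CPM (log2 fold change 1.001, adjusted p = 0.149 by edgeR). For CBR1 the log2 fold change was 1.46 without doxorubicin library 3 (adjusted p = 0.0102 by edgeR), 0.69 without library 2 and 0.46 with library 3 as the only doxorubicin library. The synthase next in order of p, FAM213B (also called PRXL2B, a prostamide and prostaglandin F synthase), stood at 13.5 ± 5.87 CPM (SD, n = 3) against 8.33 ± 2.12 CPM (n = 4), with an adjusted p of 0.261 by edgeR. Its log2 fold change of -0.75 was -0.27 without doxorubicin library 3 and -0.15 with library totals alone. In the fit without doxorubicin library 3, where ABCC4, AKR1C1 and CBR1 passed, 32.2% of all tested genes passed.

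Genes that act on PTGS2 or signal from its product gave differences in both directions. Among 8 tested regulators of PTGS2, including NFKB1, RELA and CREB1, 2 of 8 had a log2 fold change above 0, against 51.2% of all tested genes, with a median of -0.24. The groups overlapped for all 8, where 21.4% of all tested genes had groups that did not. ZFP36 and ZFP36L1, which code proteins that bind AU-rich elements and speed mRNA decay, had log2 fold changes of -0.89 and -0.93 (adjusted p = 0.342 and 0.201 by edgeR). These became 1.22 and 0.35 with library 3 as the only doxorubicin library. They were -1.33 and -1.28 without it (adjusted p = 0.0124 and 0.00613 by edgeR), where 32.2% of all tested genes passed. With library totals alone, ZFP36, ZFP36L1 and ANXA1 also turned sign, to 0.18, 0.05 and 0.11.

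Among 16 tested genes of EP2 and EP4 signalling, 5 had an unadjusted p under 0.05, against 23.2% of all tested genes. Log2 fold changes were above 0 for 6 of 16, against 51.2% of all tested genes. ADCY7, an adenylyl cyclase, stood at 117, 331 and 75.4 CPM in doxorubicin and 30.9 to 51.1 CPM in stretch (log2 fold change -2.01, adjusted p = 0.052 by edgeR). It was -1.15 without library 2, -0.80 with library 3 as the only doxorubicin library and -2.34 without library 3 (adjusted p = 0.00127 by edgeR), and it passed with DESeq2 (adjusted p = 0.00324). The list's other adenylyl cyclases, ADCY3, ADCY6 and ADCY9, also lay toward doxorubicin, at -1.16, -1.78 and -1.26 (adjusted p = 0.185, 0.125 and 0.189 by edgeR). In each of them doxorubicin library 3 lay within the stretch range. NR4A1 of the same list went the other way, at 1.32 with no overlap of the groups (adjusted p = 0.245 by edgeR). PRKAR1A, the regulatory subunit that holds protein kinase A inactive, stood at 44.5, 18.2 and 83.4 CPM against 114 to 135 CPM (log2 fold change 1.28, adjusted p = 0.122 by edgeR). It was 1.93 without doxorubicin library 3 (adjusted p = 0.00282 by edgeR) and 0.55 with library 3 as the only doxorubicin library, and it passed with DESeq2 (adjusted p = 0.0371). GNAS, the G protein subunit through which EP2 and EP4 act and which nearly all cells express, had 1 to 11 counts in every library. A low count in this table can therefore not be read as low expression, PTGS1, PTGER2 and PTGER4 included.

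Among 9 tested regulators of cytosolic phospholipase, ANXA1, an inhibitor of that enzyme, had a log2 fold change of -0.61 and ANXA5 one of 1.47 (adjusted p = 0.246 and 0.157 by edgeR). ANXA5 was at 2.44 without doxorubicin library 3 (adjusted p = 0.00287 by edgeR), 1.01 without library 2 and 0.54 with library 3 as the only doxorubicin library. Among 9 tested HSP90 partners of PTGES3 the median was 0.02, with AHSA1, which activates HSP90, at 1.26 and NR3C1, the glucocorticoid receptor, at -1.15 (adjusted p = 0.192 and 0.167 by edgeR). Without doxorubicin library 3 these were 2.44 and -1.54 (adjusted p = 0.00148 and 0.00309 by edgeR). Without library 2 they were 0.86 and -0.56, and with library 3 as the only doxorubicin library 0.28 and 0.44. In the fit without doxorubicin library 3, where ANXA5, AHSA1 and NR3C1 passed, 32.2% of all tested genes did. In the marker lists, CD68 and KRT18 passed toward doxorubicin, with log2 fold changes of -2.02 and -2.20 (adjusted p = 0.0158 and 0.0199 by edgeR). EPCAM went the other way, at 1.79 (adjusted p = 0.0574 by edgeR). Of 7 tested epithelial markers, 2 had a log2 fold change above 0, against 51.2% of all tested genes. In the fibroblast list THY1 and COL1A1 had log2 fold changes of -1.44 and -0.58 (adjusted p = 0.089 and 0.4 by edgeR), the latter 0.27 with library totals alone, and the endothelial gene TIE1 had an adjusted p of 0.543. Leaving out doxorubicin library 1 or any 1 stretch library ended the calls of CD68 and KRT18 (adjusted p of at most 0.103 and 0.117) at log2 fold changes of -1.70 to -2.06 and -2.03 to -2.27. Library totals alone ended them at -1.19 and -1.27 (adjusted p = 0.15 and 0.125 by edgeR), and library 3 as the only doxorubicin library at -1.31 and -1.13 (0.059 and 0.07).

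**Figure D4:**
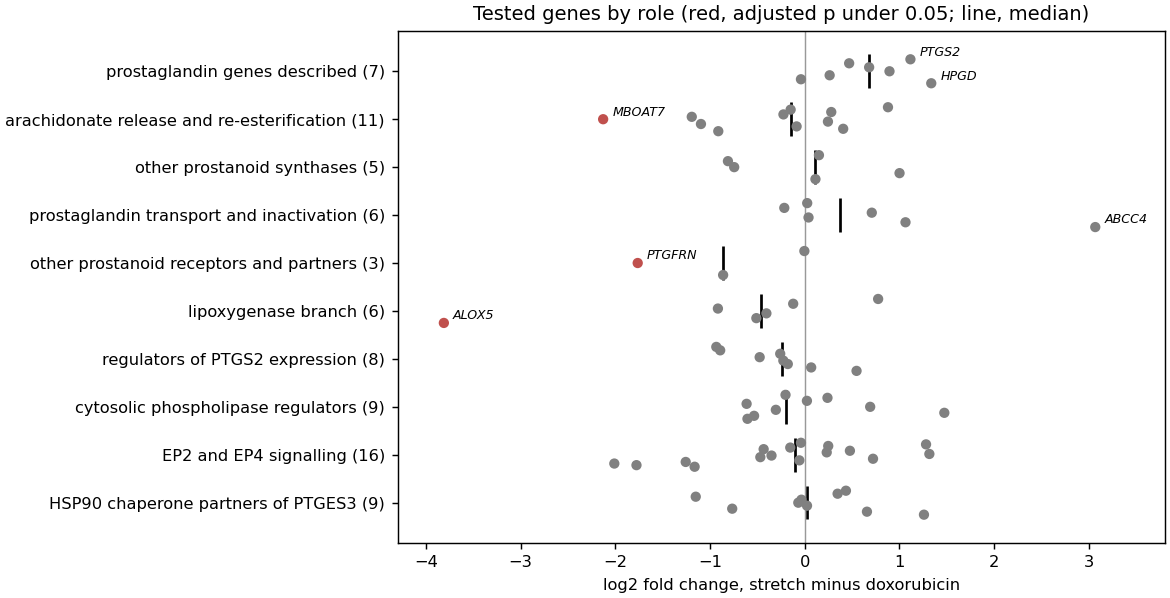
Log2 fold change, stretch minus doxorubicin (horizontal axis), of every tested gene by role, with the number tested in parentheses; red points have an adjusted p under 0.05 and black lines are medians. The 3 red points (ALOX5, MBOAT7 and PTGFRN) lie to the left, toward doxorubicin, and the 7 genes described in full have a median of 0.68.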

How the data were processed

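Per the labels' protocols, Trizol RNA was sequenced with an Ion AmpliSeq human transcriptome kit. The labels name no molecular identifiers, so count intervals cover counting error only. The authors deposited a table of whole numbers, read here as rounded estimated counts per gene. The tools named in the submitters' processing notes are Salmon 1.9 and fastp 0.20.1, with the GRCh38 build. Neither annotation nor strand setting is stated there. Of 14647 rows, 64 repeated symbols were summed and a family name left out. Groups came from the titles. No pair of libraries agreed within sampling noise (chi-square per degree of freedom at least 8.02 in 21 pairs). R 4.3.3, edgeR 4.0.16 (filterByExpr, TMM, robust quasi-likelihood fit over all genes, Benjamini-Hochberg threshold 0.05), limma 3.58.1 and DESeq2 1.42.0 were used. The fit was run on simulated counts with the same spread in both groups. That does not cover the wider spread of the doxorubicin libraries. Standard errors are the log2 fold change over the square root of F, and log-CPM has a prior count of 2. Coordinates are from GENCODE 29. The members, lists and alternatives were chosen with earlier results of these data known. Named are all members, list genes past the threshold or else the 2 of lowest p, and the 5 nearest patterns, of which 1 is not reported here. Some genes were named after their values were seen: PTGER3, PTGIR, GNAS, ALOX5AP, NFKB1, RELA, CREB1, ADCY3, ADCY6, ADCY9 and NR4A1. LYZ, CD14, EIF4A2 and the epithelial markers other than KRT18 were also named outside the rule for names.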

Additional observations from a re-analysis of the deposited data

Results flagged for a closer look

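HPGD in stretch library 4 stood apart from the rest of its group, at 71.8 CPM against 96.4 to 99.5 CPM in the other 3 stretch libraries. Its gap to the nearest library took 0.888 of the range of the group, above Dixon's 95% critical value for 4 libraries. Chance marks about 1 in 20 groups this way, and 9 genes were looked at. Without this library the log2 fold change of HPGD was 1.44, with an adjusted p of 0.0804 by edgeR.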

How the results depend on the processing

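Sparse counts and the spread of the doxorubicin libraries set the limits: PTGS1, PTGER2 and PTGER4 are counted too sparsely to compare. The cause of the sparse counts was not tested. No paired analysis was possible because the groups share no replicate number. Of 0 members called, DESeq2 called 2, limma-voom with quality weights 4 and edgeR without a single library 0 to 4; the other alternatives called 0. The members' median of 0.68 became 1.058 with library totals alone, where the median of all genes was 0.71, and 0.24 to 1.21 without single libraries. PTGER4 reversed to 0.033 with upper-quartile factors, 0.71 with library totals alone, 0.028 with no filter, 0.22 with limma-voom, 1.80 with doxorubicin library 3 alone, 1.43 without doxorubicin library 1, and 0.004 and 0.18 without stretch libraries 5 and 6, and ran from -0.752 to 1.434 without single libraries. PTGES reversed to -0.24 with quality weights. With doxorubicin library 3 alone PTGES3 became -0.43, ZFP36L1 0.35, ZFP36 1.22, NR3C1 0.44 and COL1A1 0.033. That setting has 1 doxorubicin library, assumed to vary like the stretch libraries. With library totals alone ZFP36L1, ZFP36, ANXA1 and COL1A1 became 0.048, 0.18, 0.11 and 0.27. The 3 pathway genes called became 0 with library totals alone, 5 with no filter, 1 with a mean of at least 10 CPM, 11 with DESeq2, 29 with quality weights, 0 with doxorubicin library 3 alone and 0 to 27 without single libraries. Over all genes, 261 calls became 13 with library totals alone, 285 with no filter, 143 with a mean of at least 10 CPM, 1315 with DESeq2, 5276 with quality weights and 99 with doxorubicin library 3 alone, and 12 to 3736 without single libraries. Causes of the changes were not tested.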
